A study of Mus musculus with 6 samples.

Results

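The insulin-like growth factor (IGF) system was followed through 10 genes in differentiating C2C12 cells, an established mouse myoblast line, after depletion of the imprinted long noncoding RNA H19. The genes were chosen by name, with earlier results of these data known. They are the ligand Igf1, the receptors Igf1r and Insr, the docking proteins Irs1 and Irs2, and the binding proteins Igfbp2, Igfbp3, Igfbp4, Igfbp5 and Igfbp6. All 10 were on the array, with 12 probe sets among 35556, and they stand beside 19938 genes that carry 1 symbol. The comparison has 2 groups of 3 arrays, wild type C2C12 cells given a control siRNA (siCon) and wild type C2C12 cells given an siRNA against mouse H19 (simH19). Both groups were grown with 10% fetal bovine serum, moved at about 90% density to 2% horse serum, transfected on day 1 of differentiation and collected 40 h later. All arrays come from a single cell line, and the labels name 1 control siRNA and 1 siRNA against H19. The labels do not say that triplicates were separate cultures, so p-values cover the spread between arrays, which may be technical.

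IGF1 signals through the receptor tyrosine kinase IGF1R, and insulin through the related INSR. Both phosphorylate the docking proteins IRS1 and IRS2, which pass the signal to the PI3K-AKT and RAS-ERK branches. The secreted IGF-binding proteins hold IGF away from its receptor or carry it to the cell surface, and several also act without IGF. In myoblasts the system drives growth, differentiation and survival, with IGF2 as the main ligand made by differentiating cells. H19 lies beside Igf2, hosts the microRNA miR-675 and binds let-7 microRNAs. miR-675 has been reported to repress Igf1r in mouse placenta, and let-7 has been reported to repress Igf1r, Insr and Irs2.

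The mature microRNAs that tie H19 to the receptors are shown because they set the question asked of Igf1r, Insr and Irs2. They are RefSeq sequences for GRCm38.p6, written 5′ to 3′ with the seed (bases 2 to 8) in capitals. The 3 seeds differ from each other.
miR-675-3p, chr7:142577078-142577099, minus strand: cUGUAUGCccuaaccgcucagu
miR-675-5p, chr7:142577112-142577133, minus strand: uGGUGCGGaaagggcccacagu
let-7a-5p, chr13:48538239-48538260, minus strand: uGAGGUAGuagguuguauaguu

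Values are log2 RMA expression values of a probe set, and differences are H19 siRNA minus control siRNA on that log2 scale. A gene counts as called at a Benjamini-Hochberg adjusted p under 0.05 in limma, adjusted over all 21559 units tested. The targeted locus was lower: no probe set is listed under H19, and the one listed under Mir675 and Supt6 read 12.21, 12.22 and 12.27 with control siRNA and 10.38, 10.28 and 10.37 with H19 siRNA. That signal fell to 26.9% of control (limma adjusted p = 1.80e-05). Correlations between arrays were 0.9958 to 0.9975 across all rows. Array 2 of the H19 siRNA group was the least like the others, at a mean correlation of 0.9962 against 0.9968 to 0.9971 for the rest. All 11 muscle markers were measured, and their median level was 11.19 to 11.21 in the control group, below the 11.42 to 11.50 of the H19 siRNA group. On every H19 siRNA array that median was the value of the same gene, the marker with the widest difference of the list (0.28). The gap between these levels is therefore wider than the median difference of the markers, 0.12. Medians of the adipocyte, leukocyte, endothelial, bone and cartilage and hepatocyte lists lay between 5.30 and 6.04 on all 6 arrays. These levels describe the cells only, since probe sets respond unequally and no detection calls were used.

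The values of the binding proteins did not go one way. Igfbp2, Igfbp3 and Igfbp5 were higher on every H19 siRNA array than on any control array, Igfbp4 was lower on every one, and Igfbp6 overlapped. Igf1 was also higher on every H19 siRNA array, while both receptors and both docking proteins overlapped between groups. The differences of these 5 genes were small, 1.09-fold to 1.19-fold. None of the 10 genes was called, against 0.199% of all units. At an unadjusted limma p under 0.05 there were 5 of 10 members, 4 higher and 1 lower, against 10.9% of all units. All units include many dim ones. With units below the median level left out, 1894 of 10780 units reached that p, and again 4 members higher and 1 lower. The same 5 were the members whose groups did not overlap: 4 higher, where 10.5% of all units were, and 1 lower, where 7.09% were, or 17.6% in either direction. The median difference was 0.02 for the 10 members and 0.01 for all units. Since the list was chosen with earlier results of these data known, its shares describe these genes and are not a test. In cell extracts of this kind, fewer cells of a type and less RNA per cell cannot be told apart.

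**Figure D1:**
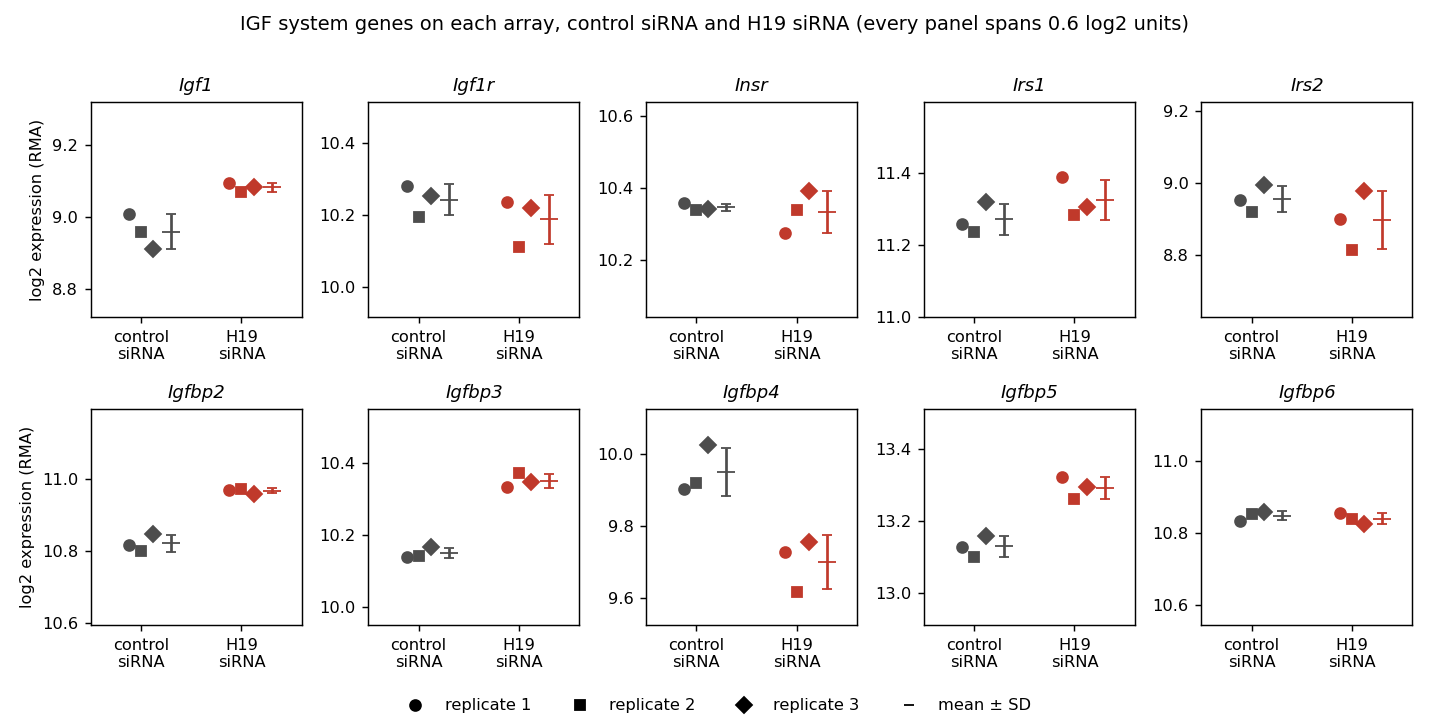
Log2 RMA expression (vertical axes, each spanning the same width) of the 10 genes on each array, with control siRNA in grey and H19 siRNA in red; symbols mark the replicate number and the bar beside them the mean ± SD of 3 arrays. The 2 groups do not overlap for Igf1, Igfbp2, Igfbp3, Igfbp4 and Igfbp5, and Igfbp4 is the only one of these 5 that is lower with H19 siRNA.

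Igfbp3 encodes the main carrier of IGF in the circulation, which cells also secrete locally. It read 10.14, 10.14 and 10.17 with control siRNA and 10.33, 10.37 and 10.35 with H19 siRNA. The groups were separated by a gap far wider than the spread within either. The difference was 0.20 (SE 0.03, 95% interval 0.12 to 0.28), or 1.15-fold, with an adjusted p of 0.0953, the smallest among the members. An exact permutation test of 3 against 3 arrays gave 0.1 (two-sided), the smallest value it can give, here and for the other 4 members whose groups did not overlap.

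Igfbp5 encodes a binding protein that muscle cells make as they differentiate and that associates with extracellular matrix. The control arrays read 13.13, 13.10 and 13.16 and the H19 siRNA arrays 13.32, 13.26 and 13.30. All 3 H19 siRNA arrays were above all control arrays, by 0.16 on average (SE 0.04, 95% interval 0.08 to 0.25), or 1.12-fold, with an adjusted p of 0.189. Igfbp2, whose protein carries an integrin-binding motif, is the next gene to Igfbp5 on chromosome 1 in the GRCm38.p6 gene table, with 0 listed genes between them. It read 10.82, 10.80 and 10.85 with control siRNA and 10.97, 10.97 and 10.96 with H19 siRNA. The H19 siRNA arrays were nearly identical to each other and all higher, by 0.15 (SE 0.03, 95% interval 0.07 to 0.22), or 1.11-fold, with an adjusted p of 0.192. Igfbp3 has a neighbour of the same family too, Igfbp1 on chromosome 11, named after its value was seen, which differed by 0.06 with overlapping groups (adjusted p = 0.603). Igfbp1 was dim, at a mean of 6.25 with control siRNA and 6.31 with H19 siRNA, below the median unit at 7.49. It cannot be told from background.

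Igfbp4 encodes a binding protein that mostly holds IGF away from its receptor until the protease PAPP-A cuts it. It read 9.91, 9.92 and 10.03 with control siRNA and 9.73, 9.62 and 9.76 with H19 siRNA. Every H19 siRNA array was lower, the second one most, and this was the widest difference among the members. The mean difference was -0.25 (SE 0.05, 95% interval -0.38 to -0.12), a 1.19-fold lower level, with an adjusted p of 0.181. Without the second H19 siRNA array it was -0.21.

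Igfbp6, whose product prefers IGF2 over IGF1, read 10.83, 10.85 and 10.86 with control siRNA and 10.86, 10.84 and 10.82 with H19 siRNA. The arrays of both groups were intermixed. The difference was -0.01, and the 95% interval from -0.08 to 0.07 leaves room only for small changes of either sign.

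The opposite differences of the binding proteins can be read within each array, where a scaling of the whole array cancels. Both pairs below were formed after the opposite differences were seen, so they restate those differences on another scale and are not tested. Igfbp3 minus Igfbp4 was 0.24, 0.22 and 0.14 with control siRNA and 0.60, 0.75 and 0.59 with H19 siRNA, larger by 0.45 without overlap. Igfbp5 minus Igfbp4 was larger by 0.41, going from 3.18 ± 0.05 to 3.59 ± 0.05 (SD, n = 3 each).

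**Figure D2:**
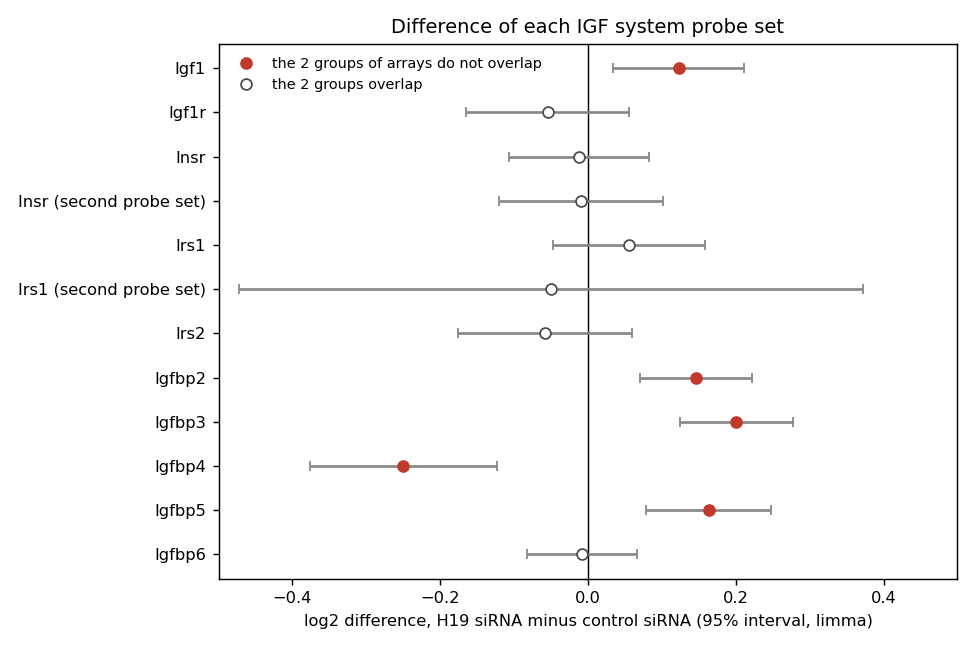
Log2 difference between H19 siRNA and control siRNA (horizontal axis) for all 12 probe sets, with 95% intervals from limma; filled points mark probe sets whose 2 groups of arrays do not overlap. Igfbp4 lies at -0.25 and Igfbp3 at 0.20, while receptor and docking protein intervals all include 0; the second probe sets come from the fit over all 35556 rows.

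Among ligands, Igf1 read 9.01, 8.96 and 8.91 with control siRNA and 9.09, 9.07 and 9.08 with H19 siRNA. The H19 siRNA arrays clustered tightly above the more scattered controls. The difference was 0.12 (SE 0.04, 95% interval 0.03 to 0.21), or 1.09-fold, with an adjusted p of 0.310. Igf2, the imprinted ligand gene next to H19, differed by 0.02 with overlapping groups (95% interval -0.07 to 0.11).

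Igf1r has been reported to be repressed by miR-675 and by let-7, and the part of either was not tested. It read 10.28, 10.19 and 10.25 with control siRNA and 10.23, 10.11 and 10.22 with H19 siRNA. The groups overlapped, and the second array was the lowest of each group. The difference was -0.05 (95% interval -0.16 to 0.06, adjusted p = 0.722). It ran from -0.08 to -0.02 when 1 array was left out, with -0.02 without the second H19 siRNA array.

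Insr, the insulin receptor, has a pair of probe sets. The brighter read 10.36, 10.34 and 10.34 with control siRNA and 10.27, 10.34 and 10.39 with H19 siRNA, so the H19 siRNA arrays lay on both sides of the tightly grouped controls. Its difference was -0.01 (95% interval -0.11 to 0.08), and that of the other probe set was also -0.01 (95% interval -0.12 to 0.10). The sign of the brighter one was not stable, at 0.02 without the first H19 siRNA array.

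The docking proteins overlapped as well. Irs1 read 11.26, 11.24 and 11.32 with control siRNA and 11.39, 11.28 and 11.31 with H19 siRNA, a difference of 0.06 (95% interval -0.05 to 0.16, adjusted p = 0.695) that ran from 0.02 to 0.08 when 1 array was left out. Its second probe set, tied to a single accession in the annotation, read 7.03, 7.05 and 7.30 against 7.39, 6.75 and 7.10. That probe set scattered widely and pointed the other way, at -0.05 (95% interval -0.47 to 0.37), and the mean of both probe sets differed by 0.0029. Irs2 read 8.95, 8.92 and 8.99 with control siRNA and 8.90, 8.82 and 8.98 with H19 siRNA, a difference of -0.06 (95% interval -0.18 to 0.06, adjusted p = 0.722), which was -0.02 without the second H19 siRNA array and -0.10 without the third. Missing the threshold does not show that these 4 genes are equal between groups, but their intervals in the main analysis end at -0.18 and 0.16.

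Whether a member is called turned on the variance model and on the filter for dim probe sets. When the variance was allowed to follow intensity and outlying variances were treated robustly, 2.02% of all units were called, and 4 of the 10 members were. These were Igfbp5 (adjusted p = 0.000683), Igfbp3 (0.00363), Igfbp2 (0.0106) and Igfbp4 (0.0122). With units below the median level left out, 2.47% were called and the same 4 genes again, with adjusted p-values from 0.0129 for Igfbp3 to 0.0455 for Igfbp4. With a filter at the 30th percentile 0.736% were called, Igfbp3 alone among the members (adjusted p = 0.0431). Under the other 12 alternatives no member was called. Igf1 was called under none.

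**Figure D3:**
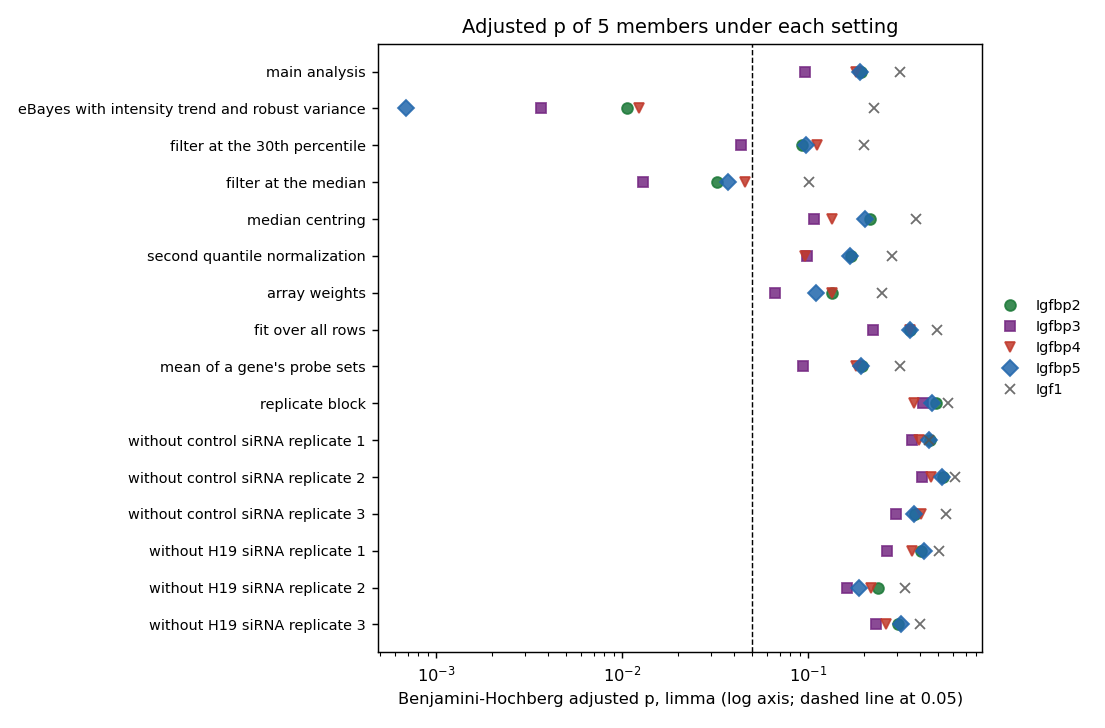
Benjamini-Hochberg adjusted p from limma (horizontal log axis, dashed line at 0.05) of the 5 members whose groups do not overlap, under the main analysis and each of 15 alternatives (rows). Igfbp2, Igfbp3, Igfbp4 and Igfbp5 lie left of the line under the intensity trend and the median filter, Igfbp3 also under the filter at the 30th percentile, and Igf1 never does.

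Promoter windows were available in the RefSeq table for 9 of the 10 genes (10 windows, from 250 bases before to 50 after a start, GRCm38.p6). Those of Igfbp3, Igfbp5 and Igfbp4 are shown because these genes differed in opposite directions. Capitals mark the E-box letters CANNTG, a pattern that reads the same on both strands and that the myogenic factors bind in some of its forms.
Igfbp3, chr11:7213874-7214173, minus strand: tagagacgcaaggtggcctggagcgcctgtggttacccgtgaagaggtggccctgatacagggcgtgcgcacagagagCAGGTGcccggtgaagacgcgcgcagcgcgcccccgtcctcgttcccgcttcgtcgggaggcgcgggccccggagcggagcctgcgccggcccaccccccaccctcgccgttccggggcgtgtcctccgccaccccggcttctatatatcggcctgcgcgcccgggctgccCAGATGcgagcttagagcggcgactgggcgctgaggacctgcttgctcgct
Igfbp5, chr1:72874816-72875115, minus strand: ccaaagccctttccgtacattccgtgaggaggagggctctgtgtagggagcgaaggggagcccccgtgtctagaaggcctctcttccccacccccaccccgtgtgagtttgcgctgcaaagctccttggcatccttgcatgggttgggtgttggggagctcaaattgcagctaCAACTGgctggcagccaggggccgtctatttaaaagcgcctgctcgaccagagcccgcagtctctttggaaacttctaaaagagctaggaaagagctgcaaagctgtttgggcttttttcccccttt
Igfbp4, chr11:99040994-99041293, plus strand: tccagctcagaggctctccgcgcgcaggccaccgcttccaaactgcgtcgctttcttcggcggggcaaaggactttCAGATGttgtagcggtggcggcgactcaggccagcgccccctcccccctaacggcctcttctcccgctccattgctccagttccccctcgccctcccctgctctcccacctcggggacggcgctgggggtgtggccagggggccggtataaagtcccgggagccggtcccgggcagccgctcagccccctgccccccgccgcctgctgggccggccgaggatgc

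The Igfbp3 window held 2 E-box matches and those of Igfbp5 and Igfbp4 held 1 each, so the letters did not separate the genes by direction. CANNTG was present in 72.3% of all 32851 windows of this length in the table. CAGCTG, a form contained in CANNTG, was present in the Igf1 window and in no other member's, against 16.3% of all windows. The letters TATAAA, searched on both strands, were in the Igfbp4 and Igfbp6 windows, against 13.6% of all. GGGCGG, on both strands, was in windows of Igfbp2, Irs1, Igf1r and Irs2, against 35.7% of all. GTAAACA, the FOXO letters on both strands, was in no member's window, against 3.65% of all. Matches describe the letters of these windows and are not binding sites.

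Around the members, 92 of 104 other genes of the pathway were measured, and 0 were called. At an unadjusted limma p under 0.05 there were 11 (12.0%), 5 higher and 6 lower, against 10.9% of all units. Their groups did not overlap in 14 higher and 7 lower, or 22.8%, against 17.6% of all units. Their median difference was 0.02. The shares of all units include many dim ones. With units below the median level left out, 76 of the pathway genes stayed in the fit. There 1894 of 10780 units had an unadjusted limma p under 0.05. The pathway genes at that p were not counted in this fit, so the 12.0% has no share of equally bright units beside it.

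Upstream, genes that govern the cutting of IGFBP4 included Stc2, an inhibitor of PAPP-A. Stc2 read 9.28, 9.29 and 9.27 with control siRNA and 9.50, 9.41 and 9.42 with H19 siRNA, all above the controls, a difference of 0.16 (adjusted p = 0.216). Stc1, a related inhibitor, differed by 0.16 with overlap (adjusted p = 0.399). Its probe set was dim, at a mean of 5.75 with control siRNA and 5.91 with H19 siRNA, and cannot be told from background. Pappa, the gene of PAPP-A, named after its values were seen, differed by -0.01 with overlap (adjusted p = 0.922). It was dim as well, at a mean of 6.72 with control siRNA and 6.71 with H19 siRNA, and cannot be told from background. Of the 10 proteases and inhibitors 7 were above 0, with a median of 0.03. Igf2r, which clears IGF2, had the smallest p in a list of 11 further genes, at 0.09 (adjusted p = 0.489). That list held ligands, receptors and binding proteins, and also a docking protein and proteins that bind RNA. Its median level was 6.19 to 6.46 over the arrays, below the median unit at 7.49, so most of it was dim.

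Downstream, the RAS and ERK list was the one with a median below 0, at -0.06, with 7 of 10 genes below 0. Dusp6, a phosphatase that ERK signalling induces and that switches ERK off, read 9.99, 10.06 and 9.93 with control siRNA and 9.82, 9.74 and 9.77 with H19 siRNA. All H19 siRNA arrays were lower, by -0.21 on average (adjusted p = 0.183). Spry1, another inhibitor induced by growth factor signals, was lower on all H19 siRNA arrays too, at -0.19 (adjusted p = 0.220). Spred1, a related inhibitor named after its values were seen, was the third gene of the list with an unadjusted p under 0.05, at -0.11 (adjusted p = 0.320). Their relatives Spry2 (-0.01) and Spred2 (-0.07), also named after their values were seen, overlapped between groups. Without overlap 4 of the 10 genes of this list were lower, against 7.09% of all units.

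The PI3K, AKT and mTOR list had a median of 0.02 over 22 genes. The ribosomal S6 kinase gene Rps6kb2 (0.09, adjusted p = 0.400) and Pik3ip1, an inhibitor of PI3K (0.09, adjusted p = 0.413), had its smallest p-values. Pik3cb, a catalytic subunit of PI3K named after its values were seen, was the third with an unadjusted limma p under 0.05 and the widest difference of the list, lower without overlap at -0.14 (adjusted p = 0.438). Of 14 FOXO factors and targets, 9 were above 0, with a median of 0.03. Without overlap 2 were higher and 2 lower, 14.3% each, against 10.5% and 7.09% of all units, which include many dim ones. The 2 lower ones, Sesn3 and Sesn1, stress-induced sestrins that restrain mTORC1, had the smallest p-values of that list. Sesn3 read 10.62, 10.60 and 10.60 with control siRNA and 10.43, 10.37 and 10.42 with H19 siRNA, lower on every array by -0.20 on average (adjusted p = 0.111). Sesn1 differed by -0.10 without overlap (adjusted p = 0.406). Dusp6 and Sesn3 were called when variance followed intensity (adjusted p = 0.0161 and 0.00351) and under the median filter (0.0438 and 0.0166). These are 2.17% and 2.63% of the pathway genes tested, close to the 2.02% and 2.47% of all units, and so no result about the pathway. Among 17 adaptors Socs1, an inhibitor of cytokine and insulin receptor signalling, differed by 0.18 with overlap (adjusted p = 0.414). Among 8 genes of glucose handling Tbc1d1, a regulator of glucose transporter traffic, differed by 0.09 (adjusted p = 0.484).

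**Figure D4:**
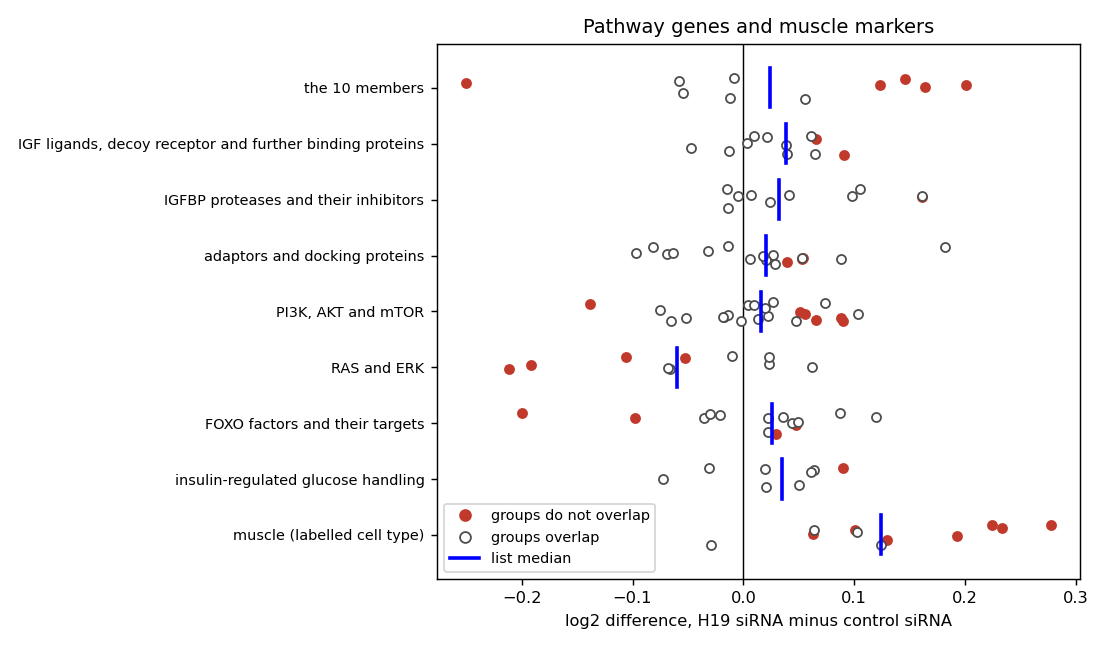
Log2 difference between H19 siRNA and control siRNA (horizontal axis) for the 10 members, the 7 pathway lists and the muscle markers (rows); each point is a gene, filled where its 2 groups of arrays do not overlap, and the bar is the list median. The RAS and ERK median lies at -0.06 and the muscle marker median at 0.12, and the members spread from -0.25 to 0.20.

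Muscle markers were higher on the same arrays as Igf1 and the 3 binding proteins. Of 11 markers 10 were above 0, against 58.0% of all units, with a median of 0.12. Without overlap 7 were higher, against 10.5% of all units. In limma 0 were called and 6 had an unadjusted p under 0.05, all higher, where 6.61% of all units were. The median unit lay at 7.49, below every muscle marker, so these are not shares of equally bright units. The part of the muscle marker shift in the differences of Igf1 and the binding proteins was not tested. Of 24 markers of other cell types 0 were called and 3 (12.5%) had an unadjusted limma p under 0.05, near the 10.9% of all units.

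The arrays' pattern of Igfbp3, the member with the smallest p, was compared with those of 10019 other genes at or above the median level. Over the 6 arrays, which share the 2 groups, Pearson's r was highest for Ankrd10, Cops7a and Tomm40 (0.997, 0.996 and 0.996) and lowest for Tef, Adgrl2 and Ppic (-0.996 each). Such values mostly carry the step between groups and are given as a description.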

How the data were processed

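RNA of 6 samples was hybridised to Affymetrix whole-transcript arrays. The authors deposited log2 expression values per probe set, and the submitters' processing notes name RMA and Affymetrix Expression Console. RMA corrects background, equalises the arrays' distributions and summarises probes, which compresses small differences of dim probe sets. Their software version and annotation were not stated, and the number of arrays limits the precision.

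Here gene names came from the platform annotation in GEO: 21789 had 1 symbol, 1621 several and 12146 were not listed. The probe set with the highest mean stood for a gene, and those with several symbols stayed as unnamed units (21559 units). Further probe sets of a member come from a fit over all rows. Groups were compared in limma 3.58.1 (lmFit, eBayes; R 4.3.3), with a two-sided test, Benjamini-Hochberg adjustment over all units, no covariate and no filter. The fit was tested on simulated data, with a pass mark set only for changes wider than those of the members. Narrower changes were simulated too, but their recovery is not reported here, so the power at the members' size is not shown. Replicate numbers did not pair the arrays. Alternatives changed the variance model, filter, scaling, array weights, units, probe set choice, block and arrays. Named genes are all members, the H19 locus probe set, Igf2, up to 2 genes of smallest p per pathway list, and the 3 patterns most and least like the top member. Igfbp1, Pappa, Spred1, Spry2, Spred2 and Pik3cb were named outside this rule, after their values were seen. The members and lists were chosen with earlier results of these data known. Of the list genes, 12 pathway genes and 3 markers were not analysed here.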

Additional observations from a re-analysis of the deposited data

How the results depend on the processing

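The count of called units, 43 in the main analysis, was 435 where variance followed intensity (robust), 266 with the filter at the median, 111 with the filter at the 30th percentile, 70 with array weights and 11 in the fit over all rows. It ran from 1 to 21 when 1 array was left out, which also leaves fewer degrees of freedom. The count of called members, 0 in the main analysis, was 4 with the trend, 4 with the median filter and 1 with the 30th percentile filter, and that of pathway genes was 2 with the trend and 2 with the median filter. With the replicate block 3 units and 0 members were called. Same-numbered arrays did not deviate together (correlations of -0.02, -0.13 and -0.14), so the numbers were not taken to pair them. Igf1, Igfbp2, Igfbp3, Igfbp4 and Igfbp5 kept their direction under all 15 alternatives, with Igfbp3 between 0.18 and 0.21 and Igfbp4 between -0.28 and -0.21. They also kept an unadjusted limma p under the threshold, except Igf1 without control siRNA replicate 3 (0.0512). Insr ran from -0.0398 to 0.0184 when 1 array was left out. After median centring the groups of Igfbp6 no longer overlapped, so 2 members were lower without overlap. Centring also moved the median difference of all units from 0.01 to -0.0028. The share of all units without overlap was not counted on that scale, so this count is no result about the members. The cause of these changes was not tested. Without detection calls, dim probe sets cannot be told from background.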
